A study of Mus musculus with 12 samples.

Results

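The response to TGF-β1 was measured in cultures labelled as cardiac fibroblasts and treated to delete Smad7. It is the difference between 3 RNA-Seq libraries of Smad7-KO cells given TGF-β1 and 3 libraries of unstimulated Smad7-KO cells. These 6 libraries, of 12 in the series, were taken by their labels alone, and all genes were examined. The cells came from the hearts of Smad7 floxed C57BL/6 mice 12 weeks old and were used at passage 2. Deletion of Smad7 was induced in culture with an adenovirus that carries Cre recombinase, at a multiplicity of infection of 100 for 48 hours. Both groups thus carried the virus, Cre and the floxed alleles, and by the labels differed in TGF-β1 at 10 ng/ml. One label field gives 2 hours of TGF-β1 and another gives 4 hours, so the duration is uncertain. The deletion depends on how many cells the virus reached. The other 6 libraries hold control cells of the same floxed mice, infected with a virus without Cre (a GFP virus by the labels), with and without TGF-β1. They entered the statistical model through a shared estimate of the spread and were compared at the end. The labels number the samples of a condition without saying whether they came from separate mice or cultures, so that p values measure the spread between these samples, which may be technical.

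TGF-β1 is a secreted cytokine that binds a pair of serine/threonine kinase receptors, Tgfbr2 and Tgfbr1. The active receptor phosphorylates Smad2 and Smad3, which enter the nucleus with Smad4 and switch genes on and off, in part through the short DNA element CAGAC. Smad7 is an inhibitory Smad that is induced by the pathway itself and thus closes a feedback loop. It has been described to bind Tgfbr1 and block it, or to have it degraded with the ubiquitin ligases Smurf1 and Smurf2. The paper reports no effect of Smad7 loss on early Tgfbr1 activation and proposes an action downstream of the receptors. In cardiac fibroblasts this pathway is known for the conversion to matrix-secreting, contractile myofibroblasts during repair of the infarcted heart.

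The 6 Smad7-KO libraries held 19972259 to 25371321 counted reads (median 22716284). They lay close together within each group, with a biological coefficient of variation of 0.0530 in unstimulated and 0.0998 in TGF-β1 libraries, against 0.335 and 0.137 in the control libraries. The first principal component of the 6 libraries held 64.8% of their variance and separated the stimulated from the unstimulated cells. The second held 12.9% and set stimulated library 3 (-21.8) apart from stimulated libraries 1 and 2 (7.66 and 14.3). Of 12 fibroblast markers, all were measured, with a summed level of 17432 to 19609 CPM (a gene's reads relative to the library's total, on the usual per-megaread scale, with TMM scaling) without and 15618 to 18012 CPM with TGF-β1. All 15 macrophage markers were measured as well, at a summed 24321 to 26734 CPM without and 23888 to 26792 CPM with TGF-β1, in cultures labelled as fibroblasts. Per length, the macrophage lysozyme gene Lyz2 had a mean FPKM of 11413 and the complement gene C1qa one of 1612 in unstimulated cells, and the fibroblast genes Col1a1 and Dcn had 288 and 365. The 12 endothelial markers tested summed to 243 to 266 CPM without and 285 to 302 CPM with TGF-β1. Pecam1 among them was at 2.92, 2.06 and 2.60 CPM without TGF-β1. Of 13 cardiomyocyte markers, 7 passed the filter, at 20.0 to 26.9 CPM in all before stimulation. In such bulk samples, fewer cells of a type and less RNA per cell cannot be told apart.

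TGF-β1 changed 1550 of 15150 genes in Smad7-KO cells (10.2% of those tested, edgeR quasi-likelihood test, Benjamini-Hochberg adjusted p of 0.05 or less). Of these, 807 rose (5.33%) and 743 fell (4.90%). At least 2-fold changes were counted in 658 genes (4.34%), 366 upward and 292 downward, and at least 4-fold changes in 123 upward and 41 downward. All 1550 had no overlap between the 3 stimulated and the 3 unstimulated libraries, which also held for 39.0% of all genes. The median log2 fold change over all genes was -0.01. Fitted to the 6 Smad7-KO libraries alone, without the wider spread of the control libraries, 3792 of 14401 genes passed (26.3%), 1943 upward (13.5%) and 1849 downward (12.8%), and 1533 of the 1550 genes were among them. That fit is given below beside a gene list wherever it moved the number of members past the threshold by more than 1.5 times, as the 6-library fit. Counts of list members are to be read against 10.2% of all genes in the main fit and 26.3% in the 6-library fit. The lists were chosen with earlier results of these data known, so their counts, medians and ranks describe the members and test nothing.

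**Figure D1:**
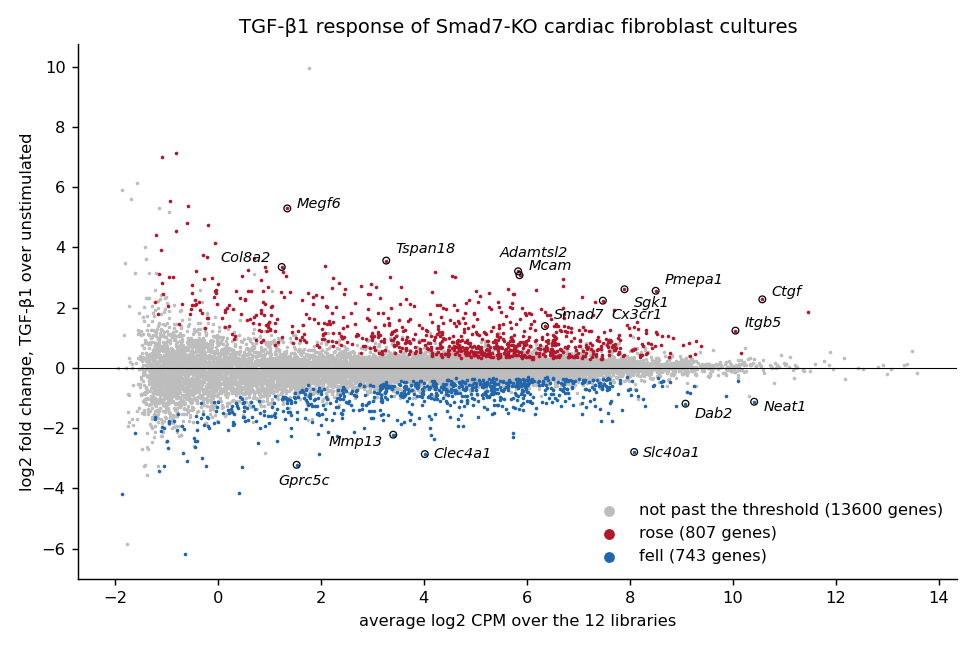
Log2 fold change with TGF-β1 in Smad7-KO cells (vertical axis) against the average log2 CPM over all 12 libraries (horizontal axis), with 1 point for each of 15150 genes and named genes circled. Red points mark the 807 genes that rose and blue points the 743 that fell. Ctgf and Itgb5 stand at the upper right, abundant and higher with TGF-β1, and Slc40a1 and Neat1 at the lower right.

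Smad7 itself was the first gene to examine, since it is the gene targeted for deletion. Its reads came to 28.6, 28.4 and 31.1 CPM in unstimulated and 80.8, 70.0 and 79.5 CPM in stimulated Smad7-KO libraries. The control libraries had 71.4, 74.6 and 77.2 CPM without and 145, 150.3 and 142 CPM with TGF-β1. In both conditions the Smad7-KO libraries thus lay below every control library, but well above 0, and Smad7 still rose in them (log2 fold change 1.39 ± 0.09 (SE), adjusted p = 3.19e-06). The counts are per gene, so whether these reads come from the deleted part of the gene, from what is left of it or from cells without the deletion was not tested.

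Other brakes of the pathway rose with Smad7. Of 20 inhibitory Smads and feedback regulators, all of them tested, 8 rose and 1 fell, with a median log2 fold change of 0.55. Pmepa1, a membrane protein that keeps Smad2 and Smad3 from the receptor, went from 93, 91 and 101 CPM to 589.6, 534 and 552 CPM (log2 fold change 2.56 ± 0.10, adjusted p = 6.72e-08), the widest change of the list, with no overlap between the groups. Ldlrad4, a related protein with the same kind of Smad-binding motif, was at 24.5, 24.5 and 22.8 CPM without and 84.9, 105 and 70.2 CPM with TGF-β1. The nuclear corepressors Skil and Ski, which hold Smad complexes inactive on DNA, rose as well. Skil went from 69.4, 77.8 and 79.3 CPM to 265, 268 and 230.1 CPM (log2 fold change 1.75) and Ski, more abundant, from 239, 236 and 249 CPM to 553, 570.5 and 519 CPM (1.18). Smad6, the other inhibitory Smad, measured 31.6, 29.2 and 30.9 CPM and 73.9, 64.8 and 74.6 CPM (log2 fold change 1.22, adjusted p = 0.000119). The corepressor Tgif1 and the decoy receptor Bambi completed the rising members at log2 fold changes of 0.96 and 1.05. Wwp1, a ubiquitin ligase described to work with Smad7 on the receptor, fell from 540.5, 531 and 504 CPM to 265, 273 and 224 CPM (log2 fold change -1.05, adjusted p = 0.00811). The ligases Smurf1 and Smurf2 lay higher in every stimulated library, at 132, 152 and 128 CPM against 86.5, 85.8 and 92.7 CPM and at 135, 143 and 125 CPM against 92.1, 97.7 and 87.2 CPM, and did not pass (adjusted p = 0.111 and 0.177). In the 6-library fit these ligases passed upward.

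Immediate transcriptional targets of TGF-β gave the list with the highest median, among lists chosen with earlier results of these data known. Of 30 genes, all tested, 21 rose and 1 fell, with a median log2 fold change of 1.20, against -0.01 over all genes. Ctgf, the matricellular growth factor CCN2, had 311, 310.2 and 362 CPM without and 1455, 1569 and 1723 CPM with TGF-β1 (log2 fold change 2.27 ± 0.21, adjusted p = 3.54e-05). Its stimulated and unstimulated values were far apart. Cyr61 (CCN1), of the same family as Ctgf, rose from 276, 249.5 and 284 CPM to 486, 487 and 512 CPM (0.88). Tgfbi, an adhesive matrix protein named for its induction by TGF-β, went from 62.3, 65.5 and 70.4 CPM to 288, 301 and 316 CPM (log2 fold change 2.19 ± 0.10). Rasl11b, a small GTPase of the Ras family, and Il11, a cytokine of the IL-6 family, had larger ratios at low levels. Rasl11b measured 2.73, 2.92 and 2.21 CPM and 22.7, 18.8 and 23.3 CPM, and Il11 0.198, 0.300 and 0.347 CPM and 1.48, 1.67 and 1.98 CPM, the latter from 19 reads in all before stimulation. Bhlhe40, Lif, Junb, Snai1 and the oxidase gene Nox4 rose by log2 fold changes of 1.80, 1.79, 1.26, 1.38 and 1.15. Angptl4, a secreted lipase inhibitor, was the member that fell (21.2, 33.4 and 29.8 CPM to 17.9, 15.6 and 18.4 CPM, adjusted p = 0.0219). The cell cycle inhibitors Cdkn1a and Cdkn2b, classical targets in epithelial cells, had log2 differences of -0.07 and 0.06 that did not pass (adjusted p = 0.802 and 0.950), and Klf10 one of 0.18 (0.564).

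**Figure D2:**
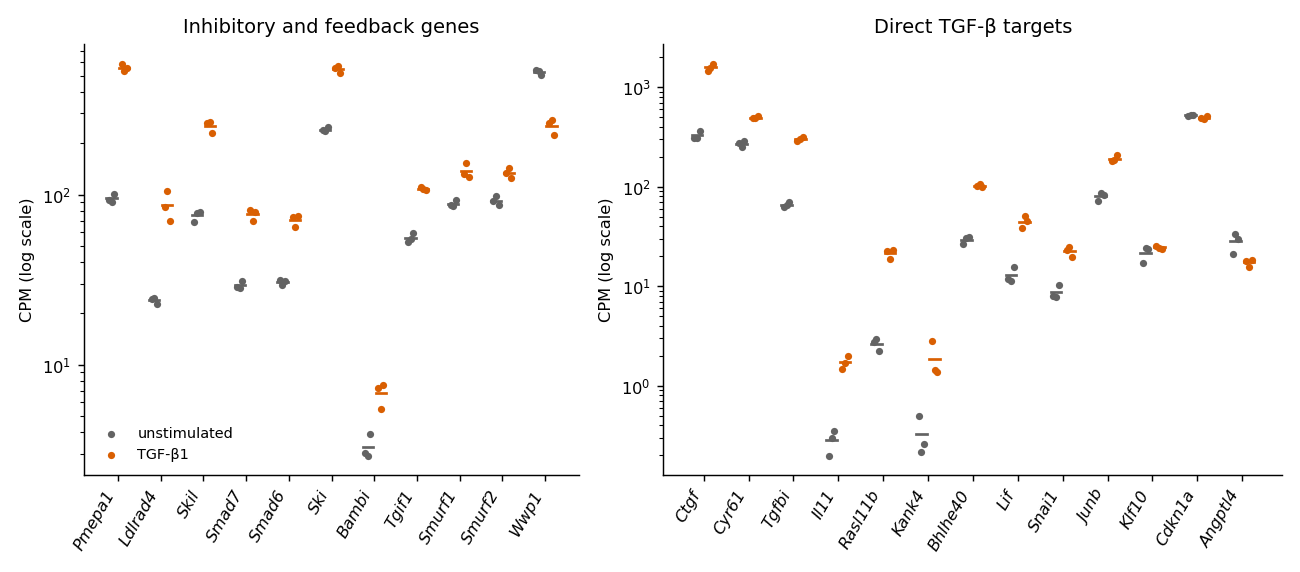
CPM on a log scale in the 3 unstimulated (grey) and 3 TGF-β1 (orange) Smad7-KO libraries for 11 inhibitory and feedback genes (left) and 13 direct targets (right), with lines at the group means. Pmepa1, Skil, Smad7 and Ctgf are separated by wide gaps, Wwp1 and Angptl4 are lower with TGF-β1, and the libraries of Klf10 overlap.

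Promoter sequence was read for the members that RefSeq's promoter table held, and 10749 of the 15150 tested genes had a window. To show the element that Smad proteins recognize in genes that rose, the 250 bases before RefSeq's start of transcription are given 5′ to 3′ on the gene's strand for Tgfbi at chr13:56609336-56609585 (plus strand), for Lif, a cytokine of the IL-6 family, at chr11:4257318-4257567 (plus strand) and for Megf6, a gene that rose from a very low level, at chr4:154170463-154170712 (plus strand), all in build GRCm38.p6. Capitals mark CAGAC or, where it stands on the other strand, GTCTG.
Tgfbi: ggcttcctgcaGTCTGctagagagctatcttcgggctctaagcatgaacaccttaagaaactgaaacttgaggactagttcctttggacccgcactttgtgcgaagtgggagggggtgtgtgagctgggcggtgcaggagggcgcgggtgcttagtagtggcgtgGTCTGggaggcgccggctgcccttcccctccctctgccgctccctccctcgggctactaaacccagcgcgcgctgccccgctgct
Lif: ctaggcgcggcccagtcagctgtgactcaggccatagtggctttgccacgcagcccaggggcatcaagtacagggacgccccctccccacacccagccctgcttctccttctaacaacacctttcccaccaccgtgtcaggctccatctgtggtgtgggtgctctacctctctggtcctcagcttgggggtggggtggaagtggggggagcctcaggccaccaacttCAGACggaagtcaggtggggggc
Megf6: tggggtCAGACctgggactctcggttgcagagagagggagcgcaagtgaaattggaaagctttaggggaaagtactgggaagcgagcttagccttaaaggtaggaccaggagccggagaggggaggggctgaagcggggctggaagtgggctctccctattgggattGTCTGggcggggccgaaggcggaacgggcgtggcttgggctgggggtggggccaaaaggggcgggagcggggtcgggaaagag
Tgfbi and Megf6 had 2 matches each and Lif had 1, which ends 19 bases before the start. They are examples that hold the element, and the window of Itgb5, which also rose, held 0 matches. Searched on both strands, CAGAC stood in 46.3% of the 594 windows of genes that rose, in 35.6% of the 528 windows of genes that fell and in 41.0% of all 10749 windows. The palindrome GTCTAGAC was found in 2, 0 and 18 of these windows. TGANTCA, the site of AP-1, was in 6.06% of windows of genes that rose, 6.82% of those that fell and 4.47% of all, and GGAATG, read by TEAD factors, in 10.1%, 11.2% and 11%. The CArG box of serum response factor stood in 1.18%, 0.758% and 1.15%. These are matches of letters and not bound sites.

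The core of the pathway was counted next. Among 19 ligands, latent binding proteins, receptors and signaling Smads, 2 rose and 1 fell (median -0.01), and in the 6-library fit 7 rose and 6 fell. Ltbp2, a microfibril protein of the latent TGF-β binding family, rose from 8.18, 8.07 and 8.72 CPM to 44.2, 48.2 and 38.4 CPM (log2 fold change 2.39 ± 0.31). Tgfbr1, the type I receptor kinase of TGF-β, went from 284, 279 and 275 CPM to 622, 649.8 and 566 CPM (log2 fold change 1.13 ± 0.21, adjusted p = 0.00447), so that its groups did not overlap. Nrros, which holds latent TGF-β1 on microglia and macrophages, fell from 158, 174 and 163 CPM to 67.1, 67.9 and 71.6 CPM (log2 fold change -1.26 ± 0.09). The ligand Tgfb1 measured 229.5, 238 and 243 CPM and 245, 236 and 255 CPM, with overlapping libraries. Tgfbr2 had a log2 difference of -0.23 (adjusted p = 0.492), Smad2 one of -0.01 and Smad4 one of -0.14. Smad3, the Smad most tied to fibroblast activation, lay at 58.4, 58.3 and 62.7 CPM without and 39.5, 42.8 and 37.1 CPM with TGF-β1, lower in all 3 stimulated libraries but not past the threshold (adjusted p = 0.0637). In the 6-library fit Smad3 and Tgfbr2 passed downward.

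The neighbouring BMP branch signals through Smad1, Smad5 and Smad9 to the Id genes, inhibitors of basic helix-loop-helix factors. Of 24 genes tested on its list, 4 rose and 1 fell (median 0.09), and in the 6-library fit 8 rose and 1 fell. The shares over all genes were 10.2% and 26.3%. Nog, which encodes the secreted BMP antagonist noggin, rose from 0.941, 1.33 and 0.694 CPM to 6.38, 4.16 and 7.83 CPM (log2 fold change 2.62 ± 0.27). Id2 rose from 43.5, 51.9 and 46.6 CPM to 149, 143 and 156 CPM (1.66 ± 0.18, adjusted p = 9.76e-05). Id1 was at 10.9, 11.5 and 10.7 CPM and 23.2, 21.1 and 28.8 CPM, without overlap, and narrowly missed the threshold (adjusted p = 0.0560). Id1 passed upward in the 6-library fit. Id3 overlapped at 49.5, 42.5 and 46.4 CPM and 47.6, 43.9 and 57 CPM. The type I and type II receptors Acvr1 and Bmpr2 rose, Acvr1 by a log2 fold change of 0.83, and the ligand Bmp4 fell from 61.5, 44.5 and 49.5 CPM to 23, 27.2 and 24.2 CPM. Among 11 activin and follistatin genes, Fstl3, Fst and Fstl1 rose (log2 fold changes 1.58, 1.31 and 0.50) and the activin subunit gene Inhbb fell (-1.32). Fst and Fstl3 bind and inactivate activins. Fstl1 was among the 8 changed genes that gained most CPM (886, 844 and 838 CPM to 1258, 1226 and 1139.9 CPM).

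The 12 largest ratios, taken among changed genes whose mean log2 CPM over the libraries was 1 or more, belonged to genes of many kinds. Megf6, a secreted protein with EGF-like repeats at chr4:154170730-154275713, rose from 0.0991, 0.0429 and 0.217 CPM to 5.03, 5.61 and 4.10 CPM, that is from 2, 1 and 5 reads to 126, 124 and 87 (log2 fold change 5.29 ± 0.38, adjusted p = 5.29e-06). The 8 reads of the unstimulated libraries make the size of that ratio imprecise. Adamtsl2, a matrix protein that binds latent TGF-β binding protein and fibrillin, stood on many more reads, at 8.77, 8.50 and 8.24 CPM against 84.2, 79.8 and 71.3 CPM (log2 fold change 3.20 ± 0.13, adjusted p = 6.72e-08). Mcam, the adhesion molecule CD146, gave 8.97, 9.19 and 8.16 CPM and 74.9, 70.9 and 75.9 CPM (3.07 ± 0.12). Galnt3, which starts O-linked glycan chains, went from 5.50, 2.96 and 4.42 CPM to 40.2, 40.2 and 36.8 CPM, and the tetraspanin gene Tspan18 from 1.64, 0.816 and 0.824 CPM to 14.5, 12.3 and 11.5 CPM. In none of these genes did the groups come near each other. Olfm2, an olfactomedin that is known to act in TGF-β-induced smooth muscle differentiation, Heyl, a transcriptional repressor downstream of Notch, and Rapgef4, an exchange factor for Rap1 that senses cyclic AMP, rose by log2 fold changes of 3.39, 3.18 and 3.05. The noncoding RNA AI504432 rose from 6.14, 5.88 and 6.77 CPM to 51.3, 54.8 and 46.9 CPM. Htr2b, a serotonin receptor linked to valve fibrosis, measured 3.47, 1.76 and 2.95 CPM and 21.3, 21.2 and 22.9 CPM, but it lies inside Psmd1 on the opposite strand (128.8 CPM unstimulated), and whether the counting used strand is not given in the sources used here. By CPM gained among changed genes, Itgb5, Sgk1, Cpd and Ctnnb1 joined the targets above. Sgk1, a kinase that responds to serum and glucocorticoids, rose from 65.8, 78.8 and 79.8 CPM to 443, 462 and 464 CPM (2.61 ± 0.12), and Ctnnb1, β-catenin, from 538, 555 and 543 CPM to 917, 898 and 878 CPM (0.72 ± 0.11).

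Collagen genes, whose products accumulate in fibrosis, had 1 member past the threshold. Over all genes, 10.2% passed in the main fit and 26.3% in the 6-library fit. Of 25 collagens, all tested, 1 rose and 0 fell (median -0.01, 4 above and 2 below at an unadjusted p under 0.05), and in the 6-library fit 5 rose and 5 fell. The gene past the threshold was Col8a2, a short-chain network collagen, at 0.297, 0.300 and 0.217 CPM and 1.99, 3.80 and 2.64 CPM (log2 fold change 3.35 ± 0.33), from 18 reads in all before and 190 after stimulation. Col1a1, the main fibrillar collagen, measured 1749, 1663 and 1669 CPM without and 1909, 1799 and 1704 CPM with TGF-β1, with overlapping libraries (adjusted p = 0.923). Col3a1 was lower in every stimulated library, 3803, 3875 and 3964 CPM against 5319.7, 4769.8 and 4859 CPM, and did not pass (adjusted p = 0.185). It passed downward in the 6-library fit. Fn1, fibronectin, overlapped at 7313, 5889 and 5817 CPM and 6331, 7316 and 4924 CPM. Of 26 enzymes that cross-link and modify collagen, all tested, Loxl3, Plod1, Loxl1, Plod2 and Loxl2 rose and 0 fell (median 0.16), and in the 6-library fit 10 rose and 0 fell. Lysyl hydroxylase Plod1 went from 165, 176 and 186 CPM to 282, 276 and 288 CPM (0.68) and the lysyl oxidase Loxl3 from 47.9, 51 and 52.1 CPM to 90.4, 101 and 98.3 CPM (0.94). Htra2, which overlaps Loxl3 on the opposite strand, fell (log2 fold change -0.52).

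Elastic and matricellular genes were carried by a few members. Of 24 tested, 6 rose and 0 fell (median 0.09), and in the 6-library fit 8 rose and 3 fell. Eln, the elastin precursor, rose from 5.90, 5.97 and 6.85 CPM to 36.2, 31.7 and 34.8 CPM (log2 fold change 2.45 ± 0.23) and Wisp1, the matricellular protein CCN4, from 43.2, 36.7 and 46.5 CPM to 222, 232 and 196 CPM (2.36 ± 0.23). Mfap4, a microfibril protein, rose by 1.42, and Postn, periostin, a marker of activated fibroblasts, from 116, 129 and 127 CPM to 189, 211 and 174 CPM (0.63 ± 0.15, adjusted p = 0.0160). Thrombospondin 1, an activator of latent TGF-β, lay higher at 2004, 2209 and 1829.5 CPM against 1662, 1456 and 1397 CPM without passing (adjusted p = 0.328). Its gene passed upward in the 6-library fit. Of 28 proteoglycan and hyaluronan genes, 4 rose and 0 fell, among them Xylt1, which starts glycosaminoglycan chains (log2 fold change 2.08 ± 0.59), and the hyaluronan synthase Has2 (1.74 ± 0.35), and in the 6-library fit 6 rose and 3 fell.

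Matrix proteases were split, where 10.2% of all genes passed in the main fit and 26.3% in the 6-library fit. Of 29 proteases and inhibitors, 4 rose and 6 fell (median 0.13), and in the 6-library fit 12 rose and 8 fell. Collagenase 3, Mmp13, fell from 16.5, 17.9 and 16.9 CPM to 3.47, 3.94 and 3.59 CPM (log2 fold change -2.22 ± 0.16, adjusted p = 4.79e-06). The aggrecanase Adamts5 fell from 763, 609.7 and 616 CPM to 289.8, 289 and 249 CPM (-1.26 ± 0.14), and Adamts1, Adamts9, Mmp12 and the plasminogen activator Plat fell too. Among the genes that rose were the metalloproteases Adam12 (2.92, 2.36 and 3.82 CPM to 17.2, 19.3 and 13.1 CPM), Adamts6 and Adamts8. Mmp2, Mmp3 and Timp1 had log2 differences of 0.24, -0.11 and 0.32, none past the threshold with all libraries. Mmp2 and Timp1 passed upward in the 6-library fit.

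The count of contractile genes of the myofibroblast past the threshold depended on the fit. Of 25, all tested, 2 rose and 0 fell (median 0.17), where 10.2% of all genes passed, and in the 6-library fit 9 rose and 0 fell, where 26.3% of all genes passed. The 2 were Pdlim7, an actin-associated adaptor (38.7, 37.9 and 39.1 CPM to 60.4, 67.5 and 70.4 CPM, log2 fold change 0.78 ± 0.11), and Smtn, smoothelin (0.48). Acta2, α-smooth muscle actin and the usual mark of the myofibroblast, was at 447, 409.8 and 385 CPM without and 568, 518 and 553 CPM with TGF-β1. Its libraries did not overlap, and it passed in the 6-library fit but not with all 12 libraries (log2 difference 0.40 ± 0.16, adjusted p = 0.181). Tagln, Myh9, Actn1, Tpm1, Palld and Synpo2 likewise passed in the 6-library fit and not with all 12 libraries. Without unstimulated control library 2, 6 members rose. Myl9 gave 52.3, 45.7 and 41.1 CPM and 50.1, 52.2 and 53.7 CPM, with overlapping libraries, and Cnn1 a log2 difference of 0.06.

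Genes that hold cells to matrix and to each other had rising members. Their counts stand beside 10.2% of all genes in the main fit and 26.3% in the 6-library fit. Integrins and focal adhesion genes had 4 of 26 rising and 0 falling, and in the 6-library fit 9 rose and 5 fell. The 4 were Itga5, the fibronectin receptor subunit (121, 129 and 134 CPM to 296, 315 and 298 CPM, log2 fold change 1.24 ± 0.11), Itgb5 (654, 622 and 648 CPM to 1581, 1435 and 1511 CPM, 1.24 ± 0.10), Itgav (0.71) and focal adhesion kinase, Ptk2. Itgav and Itgb5 together form an integrin that can free active TGF-β from its latent complex. Of 38 cadherin, junction and axon guidance genes, 13 rose and 1 fell (median 0.09). The neurotrophin receptor gene Ngfr rose from 6, 1 and 6 reads to 61, 65 and 48 (3.66 ± 0.46). Mcam and F11r, a tight junction adhesion molecule (11.9, 14.7 and 13.4 CPM to 62.3, 58.7 and 61.5 CPM), followed, then the semaphorin gene Sema7a (2.02), the neurotrophin gene Bdnf (63.6, 58 and 65.6 CPM to 144, 139 and 151 CPM), Unc5b (1.06) and connexin 43, Gja1 (0.85). Sema3c was the member that fell (-0.59). Among 21 YAP and TEAD targets, 5 rose, Ctgf and Cyr61 among them, and Crim1 fell. Among 18 SRF and MRTF regulators, Egr1 and Egr2 rose and Arhgap26 and Cdc42ep3 fell, and 3 rose and 5 fell in the 6-library fit.

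Ligands of several other pathways changed with TGF-β1. Across all genes, 10.2% passed in the main fit and 26.3% in the 6-library fit. In the IL-6 family, which signals through gp130, 5 of 15 genes rose and 2 fell. Il6 went from 13.4, 15.6 and 16.6 CPM to 61.8, 60.4 and 62.7 CPM (log2 fold change 2.02 ± 0.19) and Lif from 11.7, 11.4 and 15.4 CPM to 38.3, 50.1 and 45.3 CPM (1.79 ± 0.19), and Il11, Osm and Cntfr rose with them. The Lif receptor gene Lifr fell from 44.2, 44.1 and 41.8 CPM to 27.2, 27.9 and 26.6 CPM, and Clcf1 fell as well. The 6-library fit gave 7 rose and 4 fell. In the ErbB system, 4 of 13 genes rose and 1 fell, and 6 rose and 2 fell in the 6-library fit. Hbegf, a ligand of Egfr and Erbb4, rose from 10.0, 9.83 and 15 CPM to between 48.9 and 55.2 CPM (2.14 ± 0.17). Ereg (0.35), Lrig1 (0.67) and Lrig3 (0.87) rose too. The ligand gene Btc fell (-1.47). The receptors Egfr, Erbb2 and Erbb3 had log2 differences of 0.34, -0.08 and -0.82 that did not pass (adjusted p = 0.469, 0.898 and 0.228), while in the 6-library fit Egfr passed upward and Erbb3 downward. Of 29 PDGF, FGF and VEGF genes, 6 rose and 3 fell, and 10 rose and 4 fell in the 6-library fit. The ligands Pdgfa and Pdgfb and the receptor gene Pdgfrb rose by 0.89, 0.74 and 0.79, and Met, the receptor of hepatocyte growth factor, fell from 13.7, 13.5 and 12.3 CPM to 4.43, 3.12 and 3.30 CPM (-1.86 ± 0.22).

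Notch and Wnt genes had rising members at low levels. For comparison, 10.2% of all genes passed in the main fit and 26.3% in the 6-library fit. Of 14 Notch genes, 4 rose and 0 fell (median 0.43), and 6 rose and 3 fell in the 6-library fit. They were Heyl, Hey1 (1.61), the glycosyltransferase gene Mfng (1.54) and Notch4, which went from 4.06, 5.24 and 5.99 CPM to 27.2, 30.9 and 29.4 CPM (2.51 ± 0.16). Of 33 Wnt genes, 7 rose and 3 fell, and 10 rose and 7 fell in the 6-library fit. The ligand gene Wnt10b rose from 18 reads in all to 188, Wnt4 from 0.892, 0.944 and 1.21 CPM to 6.90, 4.66 and 4.91 CPM, and Wnt5a and its receptor gene Ror2 by 1.18 and 1.49. Dkk2, an antagonist of Wnt coreceptors, fell from 12.1, 15 and 16 CPM to 5.19, 5.93 and 4.95 CPM (-1.42 ± 0.19), with the receptor gene Fzd1 (-0.93) and Rspo3 (-0.74).

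Transcription factors moved in both directions. Of 18 factors of mesenchymal transition and the Runx family, 6 rose and 3 fell (median 0.54), and 10 rose and 4 fell in the 6-library fit. Snai1 rose from 8.03, 7.73 and 10.2 CPM to 23.2, 24.7 and 19.5 CPM (1.38 ± 0.16), and its relative Snai2 fell from 5.55, 5.75 and 5.25 CPM to 2.79, 2.67 and 3.21 CPM (-0.93 ± 0.14). Runx2, a regulator of bone and cartilage genes, rose by 1.00, and Prrx1, a mesenchymal homeobox factor, fell by 0.68 on the log2 scale. Krüppel-like factors had the lowest median of all lists (-0.49), with 0 of 14 rising and Klf15, Klf4 and Klf6 falling, and 0 rose and 7 fell in the 6-library fit. Klf15, known as a repressor of cardiac fibrosis, went from 8.27, 8.33 and 9.15 CPM to 1.36, 2.13 and 2.41 CPM (-2.13 ± 0.21, adjusted p = 4.59e-05), and Klf4 from 84.7, 80.1 and 80.6 CPM to 30.3, 33.8 and 28.5 CPM (-1.41 ± 0.15). Among 36 immediate early and MAPK feedback genes, 4 rose and 5 fell, and 10 rose and 8 fell in the 6-library fit. Junb, Egr1, Egr2 and Ier3 rose, and the MAPK phosphatase gene Dusp1 fell from 43.2, 49.4 and 45.3 CPM to 16.8, 15.3 and 15.1 CPM (-1.55 ± 0.10). Fos and Jun had log2 differences of 0.18 and -0.18 that did not pass. Of 23 lineage factors and markers of cardiac fibroblasts, 3 rose and 2 fell, and 4 rose and 4 fell in the 6-library fit. Meox1, a homeobox factor of activated cardiac fibroblasts, rose from 0.248, 0.515 and 0.868 CPM to 4.07, 4.75 and 4.44 CPM (2.99 ± 0.39), Pdgfrb and Dpep1 rose, and Tbx18 and Gata6 fell. Tcf21 and Pdgfra had log2 differences of 0.31 and -0.15. Tcf21 passed upward in the 6-library fit. Of 18 clock genes, Arntl rose with the repressors Bhlhe40 and Bhlhe41, and Dbp and Per3 fell, and 4 rose and 4 fell in the 6-library fit.

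Metabolic and stress genes were counted against the 10.2% of all genes that passed. Of 27 glycolysis and hypoxia genes, 7 rose and 2 fell (median 0.08). Hexokinase 2, Hk2, rose from 37.8, 38.8 and 38 CPM to 152, 159 and 136 CPM (log2 fold change 1.96 ± 0.18) and the glycolytic regulator Pfkfb3 from 73.1, 84.2 and 75.5 CPM to 138, 154 and 137 CPM (0.88 ± 0.21). The glucose transporter Slc2a1, the lactate exporter Slc16a3, Hif1a, Vegfa and Pfkl rose, and the lactate transporter Slc16a1 fell (-0.70). The peptide hormone gene Adm fell from 185, 174 and 183 CPM to 73.4, 98.2 and 105 CPM. Of 26 unfolded protein response genes, 1 rose and 0 fell (median 0.16), and 10 rose and 1 fell in the 6-library fit. The one past the threshold, Creb3l2, a membrane-bound factor that drives secretory genes, went from 79.8, 73 and 72.4 CPM to 285, 299 and 273 CPM (1.93 ± 0.24). The chaperone gene Hspa5 had a log2 difference of 0.05. Of 33 amino acid synthesis genes linked to ATF4, Slc1a4 rose and Slc7a11 and Slc1a5 fell (3 rose and 6 fell in the 6-library fit). Among 27 sterol and fatty acid genes, Cyp51, Mylip and Hmgcs1 rose and Pparg, the nuclear receptor of fat cells, fell from 12.1, 12.3 and 13.7 CPM to 3.39, 3.66 and 4.91 CPM (-1.67 ± 0.18), and 9 rose and 1 fell in the 6-library fit. Of 32 cell cycle genes, E2f2, Mcm6, Rrm2 and Mcm3 rose and 0 fell (median 0.01, 6 rose and 1 fell in the 6-library fit), and the proliferation marker Mki67 had a log2 difference of -0.14. Of 26 CDK inhibitors and p53 targets, Gadd45b and Plk2 rose and Sesn1, Pmaip1 and Cdkn1b fell (4 rose and 9 fell in the 6-library fit). Of 25 oxidase and antioxidant genes, Gclm, Nox4 and the phagocyte oxidase gene Ncf1 rose and Txnip, Nqo1 and Srxn1 fell (4 rose and 7 fell in the 6-library fit). Ncf1 overlaps Gtf2ird2, which also rose (log2 fold change 0.64), on the opposite strand. In the IGF system, Igfbp3 fell and 0 of 16 rose, and 1 rose and 6 fell in the 6-library fit.

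**Figure D3:**
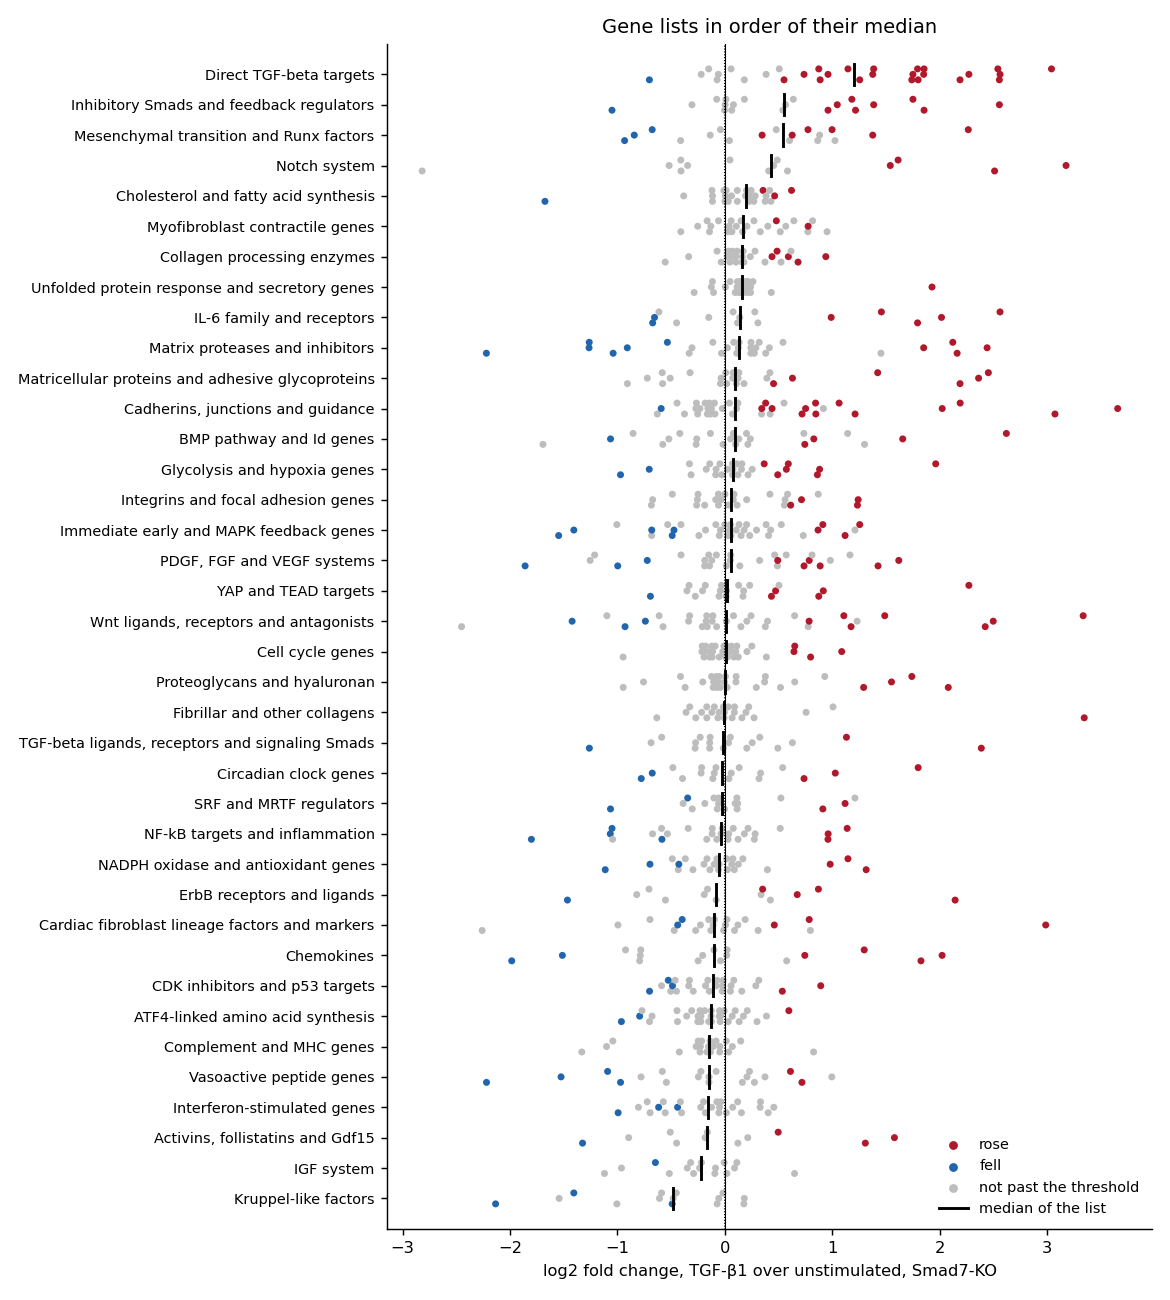
Log2 fold change with TGF-β1 (horizontal axis) of the members of 38 gene lists in Smad7-KO cells, 1 point for each gene tested, ordered by the median of each list (black bars). Direct TGF-β targets (median 1.20) and the inhibitory Smads stand at the top and Krüppel-like factors (-0.49) at the bottom, and most other medians lie near 0. Genes that rose are red and genes that fell are blue. The lists were chosen with earlier results of these data known.

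Several of the 12 deepest falls (by the same minimum level) were in genes known from macrophages. They were named for the size of their fall and not from a list. Slc40a1, the iron exporter ferroportin, which is abundant in macrophages that recycle red cells, fell from 649, 648 and 585 CPM to 103, 82.3 and 87 CPM (log2 fold change -2.79 ± 0.15, adjusted p = 7.44e-07). Spic, the transcription factor of such macrophages, went from 6.54, 5.19 and 4.77 CPM to 0.997, 0.905 and 0.330 CPM, and Cd163, their receptor for hemoglobin bound to haptoglobin, from 12.2, 10.3 and 8.24 CPM to 2.39, 2.31 and 1.65 CPM. The groups were apart in all 3 genes. The lectin receptor genes Clec4a1 and Clec7a, the latter encoding dectin-1, fell from 27.5, 37.3 and 35.3 CPM to 4.19, 4.39 and 5.19 CPM and from 104, 101 and 105 CPM to 21.7, 21.7 and 19.7 CPM. Among the 8 changed genes that lost most CPM were Plek, a platelet and leukocyte protein (897, 991 and 914 CPM to 542, 565 and 487 CPM), Sirpa, the receptor for CD47 (1488, 1557 and 1466 CPM to 1142, 1145 and 1082 CPM), Lgals3, galectin-3 (log2 fold change -0.83), and the endocytic adaptor gene Dab2 (875, 872 and 784 CPM to 373, 417 and 320.5 CPM). Neat1, a nuclear noncoding RNA, lost the most among changed genes, from 2026, 2133 and 2220.2 CPM to 749, 979 and 1198 CPM, and Ahnak fell as well (-0.95 ± 0.25). Of the other deep falls, Gprc5c, an orphan receptor, Cytip, a cytohesin partner of leukocytes, the sialyltransferase gene St8sia4, Cd28 and Jakmip3 fell by log2 fold changes of -3.22, -2.42, -2.38, -2.22 and -2.27. Of 20 vasoactive peptide genes, 2 rose and 4 fell (4 rose and 7 fell in the 6-library fit), and Ednrb, the endothelin B receptor, fell the most, from 25.2, 32.8 and 27 CPM to 6.66, 7.06 and 4.53 CPM.

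Of the 15 macrophage markers, 1 rose, 1 fell and 13 did not pass (median 0.03), and in the 6-library fit 2 rose and 2 fell. Lyz2 measured 13273, 14714 and 14983 CPM without and 11829.5, 12608 and 13993 CPM with TGF-β1, with overlapping libraries, and the F4/80 gene Emr1 1066, 1187 and 1164 CPM and 1209, 1201 and 1078 CPM. C1qa, C1qb and C1qc had log2 differences of 0.15, 0.06 and 0.06. Cx3cr1, the fractalkine receptor, was the marker that rose, from 72.5, 54.7 and 64 CPM to 316, 299 and 282 CPM (log2 fold change 2.23 ± 0.16, adjusted p = 4.66e-06), and its ligand gene Cx3cl1 rose from 10.5, 10.7 and 16.1 CPM to 39.8, 46.5 and 46 CPM (1.83 ± 0.18). The deposited interval of Cx3cr1 overlaps 5 other genes, of which Csrnp1 rose by 0.89 on the log2 scale at 9.34 CPM and Xirp1 by 1.92 at 0.319 CPM. Cd14, the lipopolysaccharide coreceptor, was the marker that fell, from 88.1, 116 and 112 CPM to 44, 48.2 and 51.8 CPM. Of 27 inflammation genes, Ptgs2, Tlr2 and Tnf rose (1.14, 0.96 and 0.96) and Il1b, Tslp, Tlr4 and Il1rn fell, and 7 rose and 4 fell in the 6-library fit. Of 17 chemokines, Ccl17, Cx3cl1, Cxcl14 and Cxcl16 rose and Cxcl2 and Ccl9 fell, and Ccl9 went from 56, 71.8 and 74 CPM to 23.6, 22.8 and 24.3 CPM. Of 26 interferon-stimulated genes, Gbp2, Irf1 and Ddx58 fell and 0 rose (2 rose and 4 fell in the 6-library fit). Of 22 complement and MHC genes, 0 passed in edgeR, 1 had an unadjusted p under 0.05 and 1 fell in the 6-library fit. Which cells the changed transcripts came from was not tested.

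**Figure D4:**
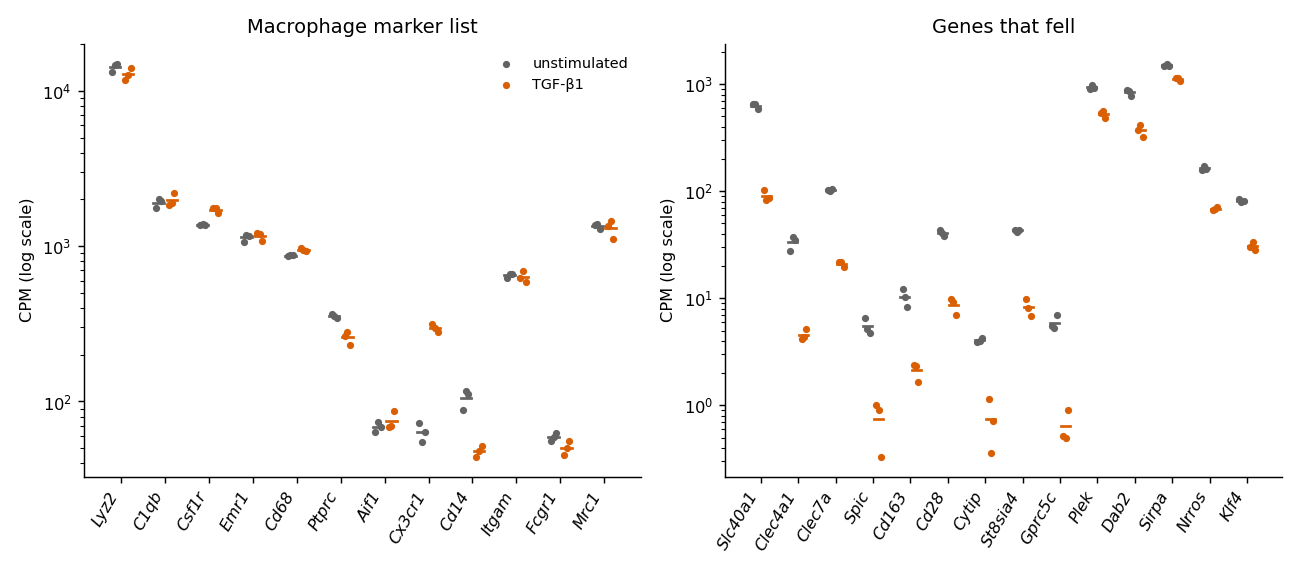
CPM on a log scale in the 3 unstimulated (grey) and 3 TGF-β1 (orange) Smad7-KO libraries for 12 macrophage markers (left) and 14 genes that fell (right), with lines at the group means. Lyz2, C1qb, Emr1 and Mrc1 overlap between the groups, Cx3cr1 is higher and Cd14 lower with TGF-β1, and Slc40a1, Clec4a1, Clec7a and Cd163 drop by wide margins.

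Markers of the other cell types were counted in the same way. Of 12 fibroblast markers, Postn rose and 0 fell (median -0.02, 2 rose and 1 fell in the 6-library fit), of 12 endothelial markers Tek fell and 0 rose (median 0.20, 2 rose and 1 fell in the 6-library fit), and 0 of 7 cardiomyocyte markers passed (1 with an unadjusted p under 0.05). Of 8 smooth muscle and pericyte markers, Mcam and Cspg4 rose and 0 fell (median 0.28). Their summed level was 62.6 to 66.4 CPM without and 124.6 to 128.7 CPM with TGF-β1, and without Mcam the other 7 summed to 53.4 to 58.3 CPM and 49.7 to 57.8 CPM. Of 9 mesothelial and epicardial markers, Tbx18 fell and 0 rose, 8 lay below 0 (median -0.18), the summed level was 364 to 420.5 CPM without and 325 to 341 CPM with TGF-β1, and 0 rose and 2 fell in the 6-library fit. Of 5 Schwann cell markers Ngfr rose and 0 fell (median -0.01), and 0 of 2 lymphocyte and neutrophil markers tested passed (1 had an unadjusted p under 0.05).

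The same stimulus in control cells changed 1268 genes (8.37%), 763 upward and 505 downward. Leaving out the third unstimulated control library raised this count to 3449, and leaving out either the first or the third stimulated one gave 825, so the shares that follow depend on those libraries. Of the 1550 genes changed in Smad7-KO cells, 1001 also passed in control cells (64.6% of the former and 78.9% of the latter), 1000 of them in the same direction. The remaining 549 passed in Smad7-KO cells alone by this count. Of these, 96 had an unadjusted interaction p under 0.05, but picking genes by that pattern itself favours low interaction p values. A gene past the threshold in Smad7-KO or control cells alone is not thereby shown to differ. These cells also differ in the virus and in Cre, so effects of those and of Smad7 loss cannot be told apart. By the test of the difference itself, 3 of 15150 genes passed (0.0198%). An unadjusted p under 0.05 was found in 392 genes, fewer than chance alone would give among 15150. The model shares its estimate of spread over groups with biological coefficients of variation from 0.0530 to 0.335. The low count therefore does not show that the responses are alike. Adam33, a metalloprotease gene, was the single gene that passed in opposite directions, with log2 fold changes of 0.68 in Smad7-KO and -0.60 in control cells and an adjusted interaction p of 0.204.

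Mcam, F11r and Gcnt2 were the 3 genes, and each rose more steeply in Smad7-KO than in control cells. Mcam, at chr9:44134469-44142727, went from 41.4, 32.1 and 42.1 CPM to 116, 106 and 109 CPM in control cells (log2 fold change 1.52 ± 0.11), against 8.97, 9.19 and 8.16 CPM to 74.9, 70.9 and 75.9 CPM in Smad7-KO cells (3.07 ± 0.12), a difference of 1.56 ± 0.16 (adjusted p = 0.0115). F11r, at chr1:171437535-171464603, went from 34.2, 30.9 and 36.6 CPM to 61.4, 70.6 and 66 CPM in control cells, and its difference was 1.23 ± 0.15 (adjusted p = 0.0317). Both genes were lower in every unstimulated Smad7-KO library than in any unstimulated control library, and with TGF-β1 the Smad7-KO libraries lay below the control libraries for Mcam and overlapped them for F11r. In CPM, Mcam gained 65.1 in Smad7-KO and 71.7 in control cells, and F11r 47.5 and 32.1. Gcnt2, which branches glycan chains and lies at chr13:40859768-40960891, differed in this: it rose from 13.3, 14.7 and 15.9 CPM to 41.6, 39.3 and 40.2 CPM in control and from 11.6, 9.96 and 10.6 CPM to 67.2, 59.8 and 63.2 CPM in Smad7-KO cells, so that all 3 stimulated Smad7-KO libraries lay above all stimulated control libraries (difference 1.10 ± 0.15, adjusted p = 0.0439). With any one of the 6 Smad7-KO libraries left out, 0 genes passed this test in edgeR. Without 1 control library it was 0, 4 and 6 genes for unstimulated libraries 1, 2 and 3 and 1, 0 and 0 for TGF-β1 libraries 1, 2 and 3, and DESeq2 on all 12 libraries gave 16.

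The promoter windows of these 3 genes are shown because theirs were the responses that differed, with CAGAC and GTCTG in capitals as before. They lie at chr9:44134408-44134657, chr1:171437311-171437560 and chr13:40859518-40859767, all on the plus strand of GRCm38.p6, and for Gcnt2 the window is 1 of 3 in the table. The gene starts in the deposited table lie 189 bases before RefSeq's for Mcam and 26 before it for F11r, so these windows also cover the first bases of the deposited genes.
Mcam: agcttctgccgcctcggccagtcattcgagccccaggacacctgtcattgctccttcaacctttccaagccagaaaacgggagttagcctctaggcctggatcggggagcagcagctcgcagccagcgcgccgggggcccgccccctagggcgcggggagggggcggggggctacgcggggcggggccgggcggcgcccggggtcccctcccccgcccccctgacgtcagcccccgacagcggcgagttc
F11r: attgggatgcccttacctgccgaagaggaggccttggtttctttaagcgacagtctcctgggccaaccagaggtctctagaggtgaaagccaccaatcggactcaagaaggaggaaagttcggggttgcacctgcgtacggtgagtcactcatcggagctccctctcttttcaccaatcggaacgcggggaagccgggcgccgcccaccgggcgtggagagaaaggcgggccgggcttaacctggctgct
Gcnt2: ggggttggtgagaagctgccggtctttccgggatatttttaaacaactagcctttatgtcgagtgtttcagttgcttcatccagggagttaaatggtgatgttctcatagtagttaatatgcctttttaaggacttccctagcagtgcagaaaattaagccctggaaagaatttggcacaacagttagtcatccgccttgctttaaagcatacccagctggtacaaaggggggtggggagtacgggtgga
None of these 3 windows, which end at RefSeq's start, held CAGAC on either strand, and the F11r window held 1 TGANTCA.

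Other genes had higher log2 values of the response in Smad7-KO than in control cells without passing the interaction test. Megf6 had a control log2 fold change of 2.54 against 5.29 (interaction adjusted p = 0.410) and Adamtsl2 one of 2.21 against 3.20 (adjusted p = 0.204). The inhibitory Smad genes were among them. Smad6 measured 144, 103 and 141 CPM without and 159.6, 188 and 169.9 CPM with TGF-β1 in control cells (log2 difference 0.42), above all 6 Smad7-KO libraries, and its interaction had an unadjusted p of 0.00121 (adjusted 0.872). Id1 and Id3 had log2 differences of -0.94 and -1.24 in control cells against 1.14 and 0.10 in Smad7-KO cells (interaction adjusted p = 0.803 and 0.980), with unstimulated control libraries at 76.6, 152 and 48.6 CPM for Id1. Smad7's own interaction had an adjusted p of 0.980. Tgfbi had log2 fold changes of 2.19 and 2.08 in Smad7-KO and control cells, and Slc40a1 had -2.79 and -2.42. Over the 807 genes that rose in Smad7-KO cells, the median log2 fold change was 0.92 there and 0.80 in control cells. Over the 743 that fell, it was -0.85 and -0.61. The genes were chosen for passing in Smad7-KO cells, so these medians are not evidence of a stronger response there.

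**Figure D5:**
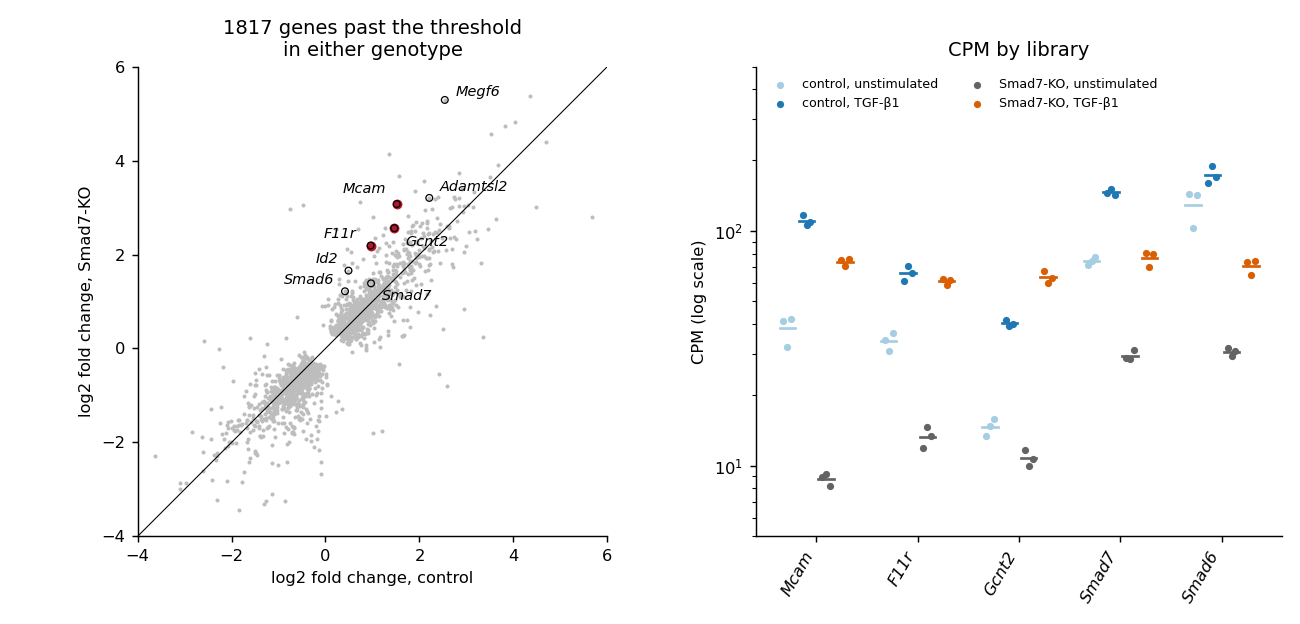
Left, log2 fold change with TGF-β1 in Smad7-KO cells (vertical axis) against control cells (horizontal axis) for 1817 genes past the threshold in either, with the line of equality and the 3 interaction genes in red. Right, CPM on a log scale in each of the 12 libraries, 3 for each group, for 5 genes, with lines at the means. Mcam, F11r and Gcnt2 start lower and climb further on the log scale in Smad7-KO cells, and the Smad7 and Smad6 values of Smad7-KO cells lie below those of control cells in the same condition.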

How the data were processed

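Cardiac fibroblast RNA was poly-A selected and sequenced as 100-base read pairs. The authors' deposited table holds gene-level counts and FPKM for 12 libraries, and the submitters' processing notes name CASAVA, TopHat2 2.0, Cufflinks 2.1.1 and HTSeq 0.6.1 with builds mm10 and GRCm38.p6. In all 35275 genes the deposited FPKM could be rebuilt from the counts, gene length and library total (relative tolerance 1e-06). Whether counting used strand is not given in the sources used here.

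Counts were filtered (filterByExpr, minimum count 10), scaled by TMM and tested with edgeR 4.0.16 (quasi-likelihood, R 4.3.3) in 1 model of all 12 libraries with a mean per group. Benjamini-Hochberg adjusted p of 0.05 or less was the threshold. The alternatives were DESeq2 1.42.0, limma 3.58.1 on log2(FPKM + 1) or log2(FPKM + 0.1), other size factors, no filter, a fit of 6 libraries, a replicate block and each library left out. Scripts were tested on simulated data. Gene lists and members were chosen with earlier results of these data known. Named genes were, among changed genes, the 12 largest log2 fold changes in each direction (mean log2 CPM of 1 or more) and the 8 largest CPM gains and losses, then 3 leaders of each list, the members of the lists and genes past the interaction test. An exact test of 3 against 3 libraries cannot go below p = 0.1. Promoters are RefSeq's (GRCm38.p6). A gene of the lists is counted but not reported here.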

Additional observations from a re-analysis of the deposited data

Results flagged for a closer look

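In 3 genes the response to TGF-β1 differed between Smad7-KO and control cells by the interaction test of edgeR (Benjamini-Hochberg adjusted). The cells also differ in the virus and in Cre, which cannot be told apart from Smad7 loss. The log2 fold change in Smad7-KO cells exceeded that in control cells by 1.56 for Mcam (adjusted p = 0.0115), by 1.23 for F11r (adjusted p = 0.0317) and by 1.10 for Gcnt2 (adjusted p = 0.0439). Gm10687, a noncoding RNA opposite Mcam, rose from 0.103 to 0.755 CPM in Smad7-KO cells, and A730081D07Rik, opposite Gcnt2, measured 0.109 and 0.665 CPM, and the part of either in the counts was not tested.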

How the results depend on the processing

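The number of genes changed by TGF-β1 in Smad7-KO cells, 1550, came to 3792 with edgeR and 3581 with DESeq2 on the 6 Smad7-KO libraries, and to 2050 with DESeq2 on all 12. It was 985 to 1083 without 1 Smad7-KO library and 1289 to 2535 without 1 control library, the highest without unstimulated control library 2. None of the 1550 genes changed sign in any of these settings that tested it. At least 2-fold changes, 658 genes, came to 293 with limma on log2(FPKM + 1), and 77.4% of the 1550 genes passed there. Of changed genes, 52.1% rose, 47.7% with limma and 58.0% without TGF-β1 Smad7-KO library 1, and the 743 genes that fell came to 414 to 491 without 1 Smad7-KO library, the lowest without that one. The interaction count, 3, was 16 with DESeq2 on all 12 libraries, 0 with limma at either pseudocount, 0 with the replicate block, and 0 to 6 without 1 library. Same-numbered stimulated and unstimulated Smad7-KO libraries had correlations of deviations of 0.0673, -0.0472 and 0.0896, so the numbers were not taken to pair the samples. The replicate block gave 1323 changed genes with all 12 libraries and 4014 with 6. Of 177 named genes past the threshold, 136 kept their call in all settings that tested them. Some of the 177 were not tested with limma. Ratios of genes with fewer than 10 reads in a library are imprecise.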
